A study of Mus musculus with 9 samples.

Results

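The genes described here are 9 interferon-induced mouse genes, Ifi202b, Ifi204, Ifi47, Gbp2, Oasl2, Irf7, Isg15, Ifit1 and Ifit3. They were found as every probe set annotated with exactly 1 gene symbol, that symbol being one of the 9, which gave 14 of the 36899 probe sets and 9 of the 15964 named genes of the series. All 9 genes had at least 1 such probe set. The genes were chosen by name, with earlier results of these data known, so their counts below describe the lines and are not independent evidence.

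RNA came from 3 mouse stromal lines: AGM-s3-A9, which supports hematopoiesis, OP9, which also supports it, and AGM-s3-A7, which does not. Both AGM-s3 lines come from the aorta-gonad-mesonephros (AGM) region of the embryo, where hematopoietic stem cells arise, and OP9 comes from newborn calvaria, so OP9 differs from AGM-s3-A7 in origin as well as in supportive capacity. No treatment, genotype or age is given for any line, and each stands for 1 established culture rather than for stroma in the animal. Labelled RNA of each line was put on 1 Affymetrix array of every type (MG-U74A, MG-U74B, MG-U74C), 9 arrays in all, so there are no replicates, no replicate error and no test.

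Interferons bind cell-surface receptors and act through Jak kinases and Stat transcription factors. In the type I response a complex that holds Stat2 and Irf9 binds the interferon-stimulated response element (ISRE), and the response to interferon gamma runs through the gamma-activated site (GAS). The induced proteins restrict viruses and intracellular microbes, and many of their genes are also held at a low level in unstimulated fibroblasts and stromal cells.

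Promoter sequences are printed for 6 of the genes because they show where such letters stand before the start of transcription. Each run is the 250 bases before the start, 5′ to 3′ on the gene's strand, from RefSeq for GRCm38.p6, the reference genome and not the genome of these lines. Of the 9 genes, 8 had a window in that table. For Ifit3, Oasl2 and Irf7 the start used in that table lies inside the full extent annotated for the gene, so other transcripts begin further upstream. Capitals mark the letters GAAANNGAAA (ISRE core) or TTCNNNGAA (GAS), read on both strands.
Gbp2, chr3:142620413-142620662, plus strand: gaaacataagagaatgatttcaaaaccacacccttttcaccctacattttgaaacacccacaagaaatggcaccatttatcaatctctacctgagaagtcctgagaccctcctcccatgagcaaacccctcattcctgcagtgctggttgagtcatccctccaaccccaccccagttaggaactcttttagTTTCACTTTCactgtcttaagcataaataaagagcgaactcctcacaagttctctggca
Isg15, chr4:156200819-156201068, minus strand: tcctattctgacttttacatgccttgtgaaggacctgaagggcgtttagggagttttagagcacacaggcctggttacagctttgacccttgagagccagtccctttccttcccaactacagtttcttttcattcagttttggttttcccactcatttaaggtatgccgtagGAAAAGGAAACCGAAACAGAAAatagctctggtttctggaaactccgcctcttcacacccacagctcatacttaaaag
Ifit1, chr19:34640639-34640888, plus strand: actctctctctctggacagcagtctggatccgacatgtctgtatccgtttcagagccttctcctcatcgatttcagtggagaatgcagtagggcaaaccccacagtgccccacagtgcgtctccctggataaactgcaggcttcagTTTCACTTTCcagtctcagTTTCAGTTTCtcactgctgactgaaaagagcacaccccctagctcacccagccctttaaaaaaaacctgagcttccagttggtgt
Ifit3, chr19:34583279-34583528, plus strand: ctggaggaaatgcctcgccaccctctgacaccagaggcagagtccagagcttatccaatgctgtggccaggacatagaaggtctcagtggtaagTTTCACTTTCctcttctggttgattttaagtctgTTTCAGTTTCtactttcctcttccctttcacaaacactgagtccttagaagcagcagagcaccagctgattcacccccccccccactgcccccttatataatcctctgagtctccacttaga
Ifi202b, chr1:173982845-173983094, minus strand: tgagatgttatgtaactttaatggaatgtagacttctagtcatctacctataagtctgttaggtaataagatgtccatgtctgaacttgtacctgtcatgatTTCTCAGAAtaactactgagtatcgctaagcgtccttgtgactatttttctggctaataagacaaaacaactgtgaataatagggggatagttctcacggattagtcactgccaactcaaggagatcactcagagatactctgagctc
Ifi47, chr11:49076337-49076586, plus strand: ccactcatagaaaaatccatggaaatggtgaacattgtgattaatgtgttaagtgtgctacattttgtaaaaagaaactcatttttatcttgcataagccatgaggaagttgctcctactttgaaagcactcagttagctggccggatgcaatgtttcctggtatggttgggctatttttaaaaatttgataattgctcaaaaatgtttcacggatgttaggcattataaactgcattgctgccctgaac

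The ISRE core stood in 4 of the 8 windows, those of Gbp2, Isg15, Ifit1 and Ifit3, against 2.98% of the 32851 windows of all genes. Gbp2 held 1 match, beginning 59 bases before the start. Isg15 held 3 that overlap one another, beginning 78, 72 and 66 bases before it. Ifit1 held 2, at 104 and 85 bases, and Ifit3 held 2, at 156 and 122 bases. The GAS letters stood in 1 of the 8 windows, that of Ifi202b, against 7.02% of all windows, and overlapped no ISRE match. The windows of Ifi47, Oasl2 and Irf7 held neither run of letters. A match describes the letters only.

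The intensities below are the deposited values after quantile normalization within an array type, which gives the 3 lines equal distributions. A line is called detected where its value exceeds the detection level, set at 49.0 for MG-U74A arrays, at 52.8 for MG-U74B arrays and at 61.5 for MG-U74C arrays. A line at or below it is called undetected. This level is the higher of the median of all values and the 95th percentile of 34 control probe sets that should find no target. Values at or below it were raised to it before a ratio was formed, so a fold against such a line is written as at least that size. Intensities of different probe sets are not on 1 scale. They are set against each other only to rank the probe sets of a gene by brightness, also across array types.

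**Figure D1:**
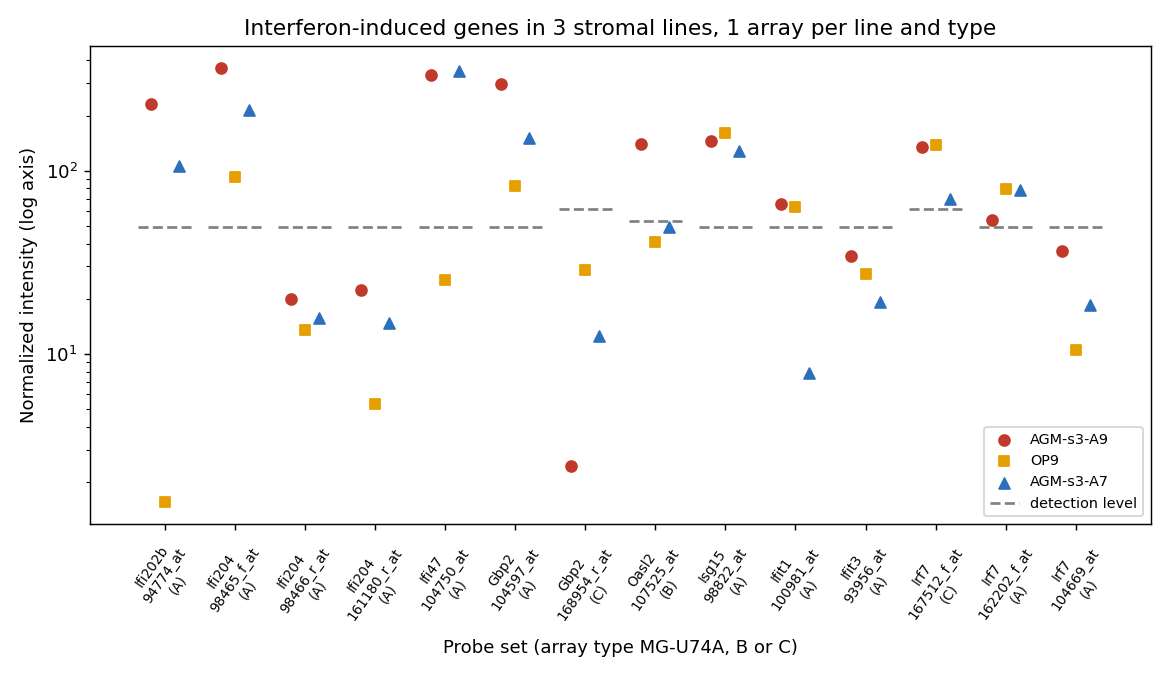
Normalized intensity (log axis) of the 14 probe sets of the 9 genes in AGM-s3-A9 (circles), OP9 (squares) and AGM-s3-A7 (triangles), 1 array per point, with the detection level of the array type as a dashed line. The first probe set shown for each gene is its brightest; Ifi202b and Ifi47 lie below the dashed line in OP9 alone, and Oasl2 lies above it in AGM-s3-A9 alone.

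On its brightest probe set, AGM-s3-A9 had the highest intensity of the 3 lines for 6 of the 9 genes, OP9 for 2 and AGM-s3-A7 for 1. Over all named genes AGM-s3-A9 was highest for 32.0%, OP9 for 38.2% and AGM-s3-A7 for 29.7%. AGM-s3-A9 was lowest for 0 of the 9 genes, OP9 for 5 and AGM-s3-A7 for 4, where over all named genes AGM-s3-A9 was lowest for 32.8%, OP9 for 34.5% and AGM-s3-A7 for 32.7%. These ranks also use values at or below the detection level, as for Ifit3 in all lines. Of the 8 genes above it in at least 1 line, AGM-s3-A9 was highest for 5, OP9 for 2 and AGM-s3-A7 for 1. Of 9006 named genes above it in at least 1 line, AGM-s3-A9 was highest for 31.4%, OP9 for 39.7% and AGM-s3-A7 for 28.9%. AGM-s3-A9 was lowest for 0 of those 8 genes, OP9 for 5 and AGM-s3-A7 for 3. Of the 9006, AGM-s3-A9 was lowest for 32.3%, OP9 for 35.2% and AGM-s3-A7 for 32.6%. AGM-s3-A9 had 8 of the 9 genes above the detection level, OP9 5 and AGM-s3-A7 6. Of all 15964 named genes 8093 were above it in AGM-s3-A9, 8037 in OP9 and 8034 in AGM-s3-A7. In RNA from a whole culture, fewer expressing cells and less RNA per cell cannot be told apart.

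The HIN-200 genes encode DNA-binding proteins of the interferon response, and 2 are members. Ifi202b, on chromosome 1, whose protein p202 binds DNA in the cytoplasm, read 233 in AGM-s3-A9, 1.55 in OP9 and 106 in AGM-s3-A7. Both AGM-s3 lines were above the detection level and OP9 was far below it. AGM-s3-A9 stood 2.20-fold above AGM-s3-A7, OP9 at least 2.16-fold below AGM-s3-A7, and AGM-s3-A9 at least 4.75-fold above OP9.

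Ifi204, also on chromosome 1, encodes p204, a DNA sensor that also acts on transcription. Its brightest probe set read 365 in AGM-s3-A9, 92.6 in OP9 and 214 in AGM-s3-A7, with all lines above the detection level and in the same order as for Ifi202b. AGM-s3-A9 stood 1.70-fold above AGM-s3-A7, OP9 stood 2.31-fold below AGM-s3-A7, and AGM-s3-A9 stood 3.95-fold above OP9. This probe set has a suffix that marks possible cross-hybridisation within a gene family. The other 2 probe sets of Ifi204 were undetected in all lines, at most 20.0 on 1 and 22.2 on the other, and give no fold.

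Ifi47 on chromosome 11 encodes Irgd, an immunity-related GTPase of the family that acts on the vacuoles of intracellular pathogens. It read 334 in AGM-s3-A9, 25.3 in OP9 and 352 in AGM-s3-A7. The AGM-s3 lines were nearly equal, at a log2 ratio of -0.08, whose sign turns on the values as deposited (0.67) and with scaling to hybridization controls (0.37). OP9 was below the detection level, at least 7.19-fold below AGM-s3-A7, and AGM-s3-A9 was at least 6.82-fold above OP9.

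Gbp2 on chromosome 3 encodes a guanylate-binding protein, a large GTPase that also gathers at pathogen vacuoles. Its MG-U74A probe set read 299 in AGM-s3-A9, 82.6 in OP9 and 151 in AGM-s3-A7, so that all lines were above the detection level and OP9 was lowest. AGM-s3-A9 stood 1.98-fold above AGM-s3-A7 and OP9 1.83-fold below it, both under the 2-fold used for counts, and AGM-s3-A9 stood 3.62-fold above OP9. A second probe set, on MG-U74C, was undetected in all lines, at 2.44 in AGM-s3-A9, 28.6 in OP9 and 12.5 in AGM-s3-A7.

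Oasl2 on chromosome 5 encodes an oligoadenylate synthetase-like protein of the antiviral response. It was read on MG-U74B alone, at 141 in AGM-s3-A9, 40.6 in OP9 and 49.3 in AGM-s3-A7. AGM-s3-A9 was the only line above the detection level, at least 2.66-fold above OP9 and AGM-s3-A7 alike, and no fold between OP9 and AGM-s3-A7 can be given.

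Of the remaining 4 genes, Isg15, Ifit1 and Irf7 had a positive log2 ratio for OP9 over AGM-s3-A7 on their brightest probe set. Ifit3, undetected in all lines, gave none. Isg15 on chromosome 4, whose product is a ubiquitin-like protein attached to other proteins, read 146 in AGM-s3-A9, 161 in OP9 and 129 in AGM-s3-A7. Its log2 ratio was 0.18 for AGM-s3-A9 over AGM-s3-A7, -0.14 for AGM-s3-A9 over OP9 and 0.32 for OP9 over AGM-s3-A7. The first and the second are smaller than the error between probe sets given below and the third is about its size. The first, however, was 0.90 on the values as deposited and 0.61 with hybridization control scaling, both larger than that error. The sign of the second turns on the values as deposited (0.49) and with hybridization control scaling.

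Ifit1 on chromosome 19 encodes a tetratricopeptide repeat protein that binds RNA lacking the cap marks of the host. It read 65.5 in AGM-s3-A9, 63.1 in OP9 and 7.84 in AGM-s3-A7. Both supportive lines were above the detection level and AGM-s3-A7 was below it. Because the supportive lines are close to that level, the bounds are small, at least 1.34-fold for AGM-s3-A9 over AGM-s3-A7 and at least 1.29-fold for OP9 over AGM-s3-A7. Ifit3, a repeat protein of the same family and chromosome, read 34.4 in AGM-s3-A9, 27.2 in OP9 and 19.2 in AGM-s3-A7, undetected in all lines, so no fold is given.

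Irf7 on chromosome 7 encodes the transcription factor that amplifies type I interferon production, and its 3 probe sets disagreed. The brightest, on MG-U74C, read 135 in AGM-s3-A9, 138 in OP9 and 70.4 in AGM-s3-A7, so AGM-s3-A9 stood 1.91-fold and OP9 1.96-fold above AGM-s3-A7. Another, on MG-U74A, read 53.9 in AGM-s3-A9, 79.3 in OP9 and 78.0 in AGM-s3-A7, with AGM-s3-A9 1.45-fold below AGM-s3-A7, a direction that turns on the values as deposited (log2 ratio 0.13). The third, on the same array type, was undetected in all lines, at 36.4 in AGM-s3-A9, 10.4 in OP9 and 18.5 in AGM-s3-A7. The first and the second carry a suffix that marks possible cross-hybridisation, and the third does not. The brightest was chosen across array types that were normalized apart. The direction used for Irf7 between the AGM-s3 lines rests on that choice.

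**Figure D2:**
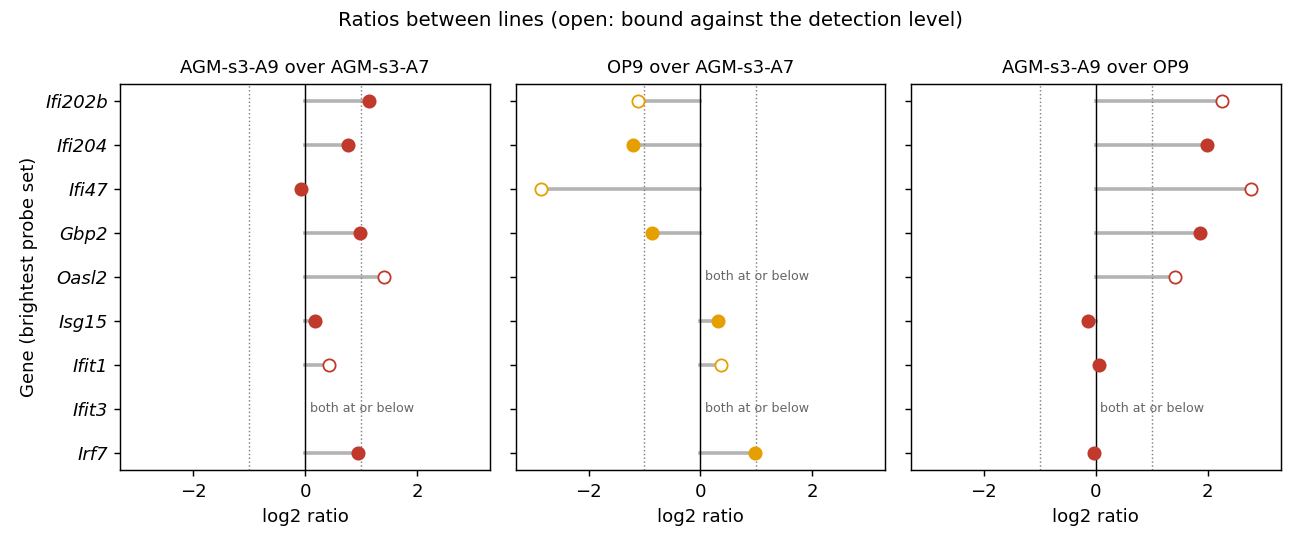
Log2 ratio of normalized intensities for the brightest probe set of each gene, in 3 panels for AGM-s3-A9 over AGM-s3-A7, OP9 over AGM-s3-A7 and AGM-s3-A9 over OP9. Filled points are measured in both lines, open points are bounds against the detection level and dotted lines mark 2-fold; the 5 upper genes lie beyond 2-fold in the right panel, between 1.41 and 2.77, and Isg15, Ifit1 and Irf7 lie between -0.14 and 0.05.

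Between AGM-s3-A9 and AGM-s3-A7, which are of the same embryonic region, 2 of the 9 genes were at least 2-fold higher, Ifi202b and Oasl2, and 0 were lower. The same rule called 3.08% of the 8592 genes tested higher and 2.28% lower. A gene was tested where its brightest probe set was above the detection level in at least 1 line of the pair, which held for 8 of the 9. The median log2 ratio of those 8 was 0.85, against 0.01 over all genes tested, and was 0.30 with the median over the probe sets of a gene. Bounds enter this median, and those below, at their size. The count was 4 on the values as deposited and with hybridization control scaling, adding Gbp2 and Ifi204, 3 with scaling to the trimmed mean, adding Gbp2, and 0 with the 75th percentile of all values as the detection level. Here and below, shares of all genes were computed for the reported settings only.

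Between OP9 and AGM-s3-A7, 3 of the 9 genes were at least 2-fold lower, Ifi202b, Ifi204 and Ifi47, and 0 were higher, where 5.98% of 8741 genes were lower and 5.14% higher. The median log2 ratio of the 7 members tested was -0.87, against 0.04 over all genes tested. That median was -0.33 with the 75th percentile as the detection level, -0.28 with no filter on low values and 0 with the median over the probe sets of a gene. With hybridization control scaling 1 gene remained past 2-fold lower, Ifi47. On the values as deposited the count was 2, Ifi202b standing at -0.85, and it was 2 without probe sets of possible cross-hybridisation. The comparison shares the AGM-s3-A7 arrays with the one above.

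Between AGM-s3-A9 and OP9, both supportive, 5 of the 9 genes were higher by 2-fold or more and 0 lower, against 6.57% higher and 5.06% lower of the 8763 genes tested. They were Ifi202b, Ifi204, Ifi47, Gbp2 and Oasl2, with log2 ratios between 1.41 and 2.77, those of Ifi202b, Ifi47 and Oasl2 being bounds. The median over 8 members tested was 1.63, against -0.02 over all genes, and was 0.82 with the 75th percentile as the detection level and 0.49 with the median over probe sets. The count was 5 under all 4 other ways of scaling the arrays, 4 without probe sets of possible cross-hybridisation, and 1 with the 75th percentile as the detection level.

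With 1 array per line and type, the error can be described only between probe sets. It was estimated as the robust SD of a single log2 ratio, from the difference between the 2 brightest probe sets that a gene has on an array type, both detected in the 2 lines. For AGM-s3-A9 over AGM-s3-A7 this SD was 0.30 (1160 pairs). It was 0.31 for OP9 over AGM-s3-A7 (1134 pairs). It came to 0.32 for AGM-s3-A9 over OP9 (1128 pairs). Such SDs do not cover separate cultures. For AGM-s3-A9 over OP9, Ifi204 (1.98) and Gbp2 (1.86) were measured in both lines, while Ifi202b, Ifi47 and Oasl2 are bounds that the SD does not describe. With the 75th percentile as the detection level those bounds were 0.45, 0.97 and 0.83, with Ifi204 at 1.10 and Gbp2 at 0.81. The log2 ratios of Isg15, Ifit1 and Irf7 were smaller than 0.32. Genes singled out for a large ratio cannot be tested against this SD.

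**Figure D3:**
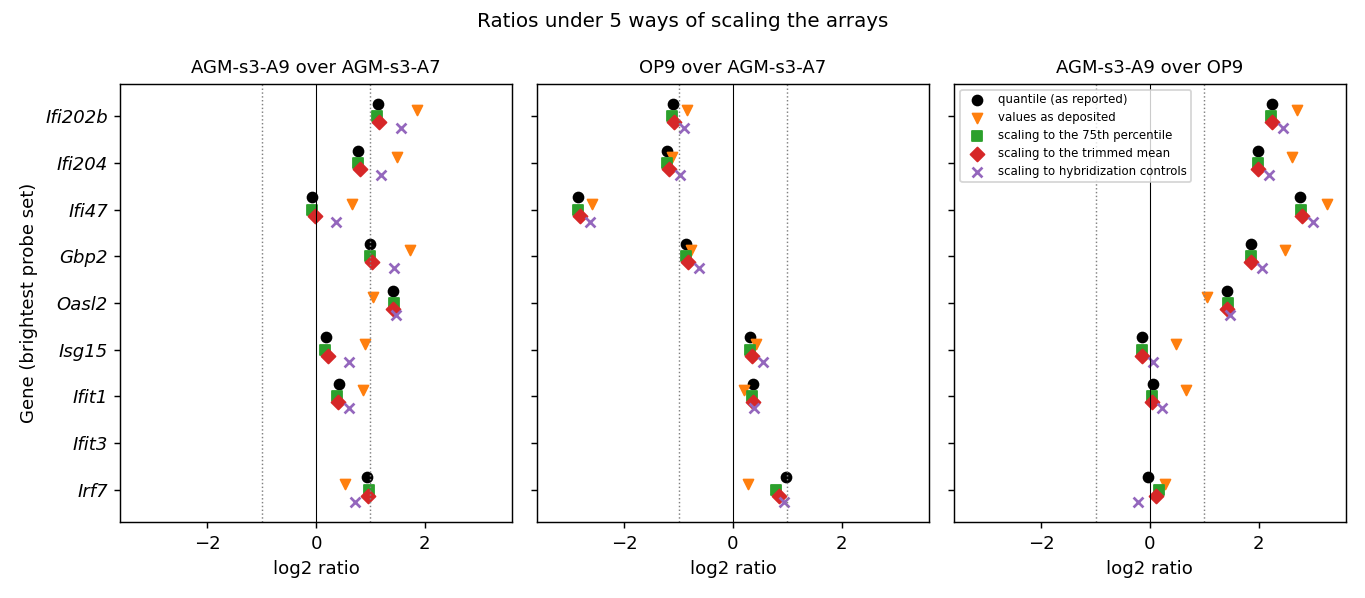
Log2 ratio of the brightest probe set of each gene in the 3 comparisons under 5 ways of scaling the arrays, marked by symbol; Ifit3 has no ratio. Values as deposited (triangles) and hybridization control scaling (crosses) move the genes read on MG-U74A to the right in the AGM-s3-A9 over AGM-s3-A7 panel, Ifi202b reaching 1.85 and 1.56, while scaling to the 75th percentile and to the trimmed mean stay near the black points.

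The scaling matters because the AGM-s3-A9 array of MG-U74A was the brightest of its type, with a deposited median of 64.5, against 42.8 for OP9 and 42.7 for AGM-s3-A7. On MG-U74B the AGM-s3-A9 array was the dimmest, at 21.6 in AGM-s3-A9, 32.6 in OP9 and 26.5 in AGM-s3-A7. Without scaling the median log2 ratio of all genes was 0.24 for AGM-s3-A9 over AGM-s3-A7, and with hybridization control scaling 0.23. Likewise it was 0.21 for OP9 over AGM-s3-A7 with hybridization control scaling, and 0.19 for AGM-s3-A9 over OP9 on the values as deposited. Oasl2, on MG-U74B, went the other way, its log2 bound being 1.06 on the values as deposited and 1.41 after quantile normalization.

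Other genes of the pathway were taken from 8 lists by role, 130 genes in all, of which 105 had a probe set of 1 symbol. Interferon genes themselves were at or near background. Of 9 ligand genes 0 were above the detection level in AGM-s3-A9, 2 in OP9 and 3 in AGM-s3-A7. Each such reading lay between 52.8 and 63.3, close to the level of 49.0, on a probe set whose suffix marks possible cross-hybridisation. Ifnb1, the first type I interferon made in fibroblasts, read 4.89 in AGM-s3-A9, 9.16 in OP9 and 6.07 in AGM-s3-A7, and Ifng read 0.86 in AGM-s3-A9, 0.44 in OP9 and 7.42 in AGM-s3-A7.

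All 5 receptor genes tested stood higher in AGM-s3-A9 relative to AGM-s3-A7, 1 of them at least 2-fold, at a median log2 ratio of 0.78. Of all 8592 genes tested, 4348 stood higher and 3.08% at least 2-fold, at a median of 0.01. Ifnar2, a chain of the type I receptor, read 268 in AGM-s3-A9, 129 in OP9 and 95.5 in AGM-s3-A7 on its brightest probe set, with AGM-s3-A9 2.80-fold above AGM-s3-A7. Its second probe set, whose suffix marks possible cross-hybridisation, gave 216 in AGM-s3-A9, 70.2 in OP9 and 176 in AGM-s3-A7, under 2-fold between the AGM-s3 lines. Ifnar1, the other chain, read 238 in AGM-s3-A9, 233 in OP9 and 120.3 in AGM-s3-A7 on its brightest probe set and 172 in AGM-s3-A9, 111 in OP9 and 118 in AGM-s3-A7 on the other. For the interferon gamma receptor, Ifngr1 had a log2 ratio of 0.78 between the AGM-s3 lines and Ifngr2 one of 0.57.

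Of 9 tested genes for Jak, Stat and Irf proteins, 0 were 2-fold apart between the AGM-s3 lines, 1 was lower for OP9 over AGM-s3-A7 and 2 were higher for AGM-s3-A9 over OP9. Of all genes tested, 3.08% were higher and 2.28% lower between the AGM-s3 lines. For OP9 over AGM-s3-A7 5.98% were lower, and for AGM-s3-A9 over OP9 6.57% were higher. Irf1, a transcription factor induced by interferon gamma, read 523 in AGM-s3-A9, 159 in OP9 and 415 in AGM-s3-A7, with OP9 2.60-fold below AGM-s3-A7 and AGM-s3-A9 3.28-fold above OP9. Jak2, a kinase of the gamma receptor, read 210.1 in AGM-s3-A9 against 81.2 in OP9, or 2.59-fold higher, on 1 of 2 probe sets, the other being undetected. Irf9 and Stat2, partners in the ISRE-binding complex, had log2 ratios of 0.80 and 0.22 for AGM-s3-A9 over AGM-s3-A7 and 0.50 and 0.18 for OP9 over AGM-s3-A7.

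Among negative regulators Socs3, an inhibitor of Jak signalling, read 197 in AGM-s3-A9, 73.2 in OP9 and 253 in AGM-s3-A7, with OP9 3.46-fold below AGM-s3-A7 and AGM-s3-A9 2.69-fold above OP9. Of its other probe sets, 1 read 148 in AGM-s3-A9, 102 in OP9 and 266 in AGM-s3-A7 and the other was undetected. Ptpn1, a phosphatase that acts on Jak kinases, stood 2.10-fold higher in AGM-s3-A9 than in OP9 on 1 of 2 probe sets. Usp18, which removes Isg15 from proteins, was above the detection level in OP9 alone, at 14.5 in AGM-s3-A9, 54.5 in OP9 and 2.10 in AGM-s3-A7.

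Among sensors of nucleic acids, Ddx58, which encodes the RNA sensor RIG-I, read 387 in AGM-s3-A9, 229 in OP9 and 183 in AGM-s3-A7, with AGM-s3-A9 2.11-fold above AGM-s3-A7, which was under 2-fold on the values as deposited (log2 ratio 0.69). Sting1, the adaptor of cytosolic DNA sensing, read 309 in AGM-s3-A9 against 107 in OP9 on its brightest probe set, or 2.88-fold higher, and its other probe set was undetected. Myd88, the adaptor of Toll-like receptors, went the other way, at 60.0 in AGM-s3-A9 against 127 in OP9, or 2.12-fold lower, and was under 2-fold on the values as deposited (log2 ratio -0.48) and with hybridization control scaling (-0.91).

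The other interferon-inducible GTPases held 2 genes at least 2-fold above AGM-s3-A7 in AGM-s3-A9, Irgm2 (2.32-fold) and Iigp1 (2.14-fold), out of 6 tested, against 3.08% of all genes tested. Unlike Ifi47 and Gbp2, Iigp1 was highest in OP9, at 131 in AGM-s3-A9, 188 in OP9 and 61.3 in AGM-s3-A7, with OP9 3.07-fold above AGM-s3-A7. Its second probe set, with a family suffix, read 39.1 in AGM-s3-A9, 72.2 in OP9 and 35.5 in AGM-s3-A7, and the second probe set of Irgm2, on MG-U74C, was undetected. Gbp3, a relative of Gbp2, read 161 in AGM-s3-A9 against 75.8 in OP9, or 2.12-fold higher. The antiviral GTPase genes Mx1 and Mx2 were undetected in all lines.

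Of the other effectors, 23 of 43 with a probe set were tested between the AGM-s3 lines, with 2 at least 2-fold higher and 1 lower in AGM-s3-A9. Of all genes tested 3.08% were higher and 2.28% lower. Ube2l6, the conjugating enzyme for Isg15, was above the detection level in AGM-s3-A9 alone, at 146 in AGM-s3-A9, 32.4 in OP9 and 41.4 in AGM-s3-A7, at least 2.98-fold above either. Lgals3bp, a secreted glycoprotein, stood above AGM-s3-A7 by 2.50-fold in AGM-s3-A9 and by 2.25-fold in OP9 on a probe set of possible cross-hybridisation, and under 2-fold on its other. On the values as deposited the log2 ratio for OP9 over AGM-s3-A7 was 0.56. Isg20, an exonuclease gene, was lower in both supportive lines, at 49.2 in AGM-s3-A9, 34.8 in OP9 and 116 in AGM-s3-A7. Its log2 ratio for AGM-s3-A9 over AGM-s3-A7 was under 2-fold on the values as deposited (-0.56) and with hybridization control scaling (-0.86), and so was that for OP9 over AGM-s3-A7 on the values as deposited (-0.98). Adar, the RNA-editing enzyme gene, read 112 in AGM-s3-A9, 248 in OP9 and 90.6 in AGM-s3-A7, with 1 of 4 probe sets past 2-fold, 2.74-fold for OP9 over AGM-s3-A7 and 2.22-fold lower for AGM-s3-A9 over OP9. Ifi27, a gene of an interferon-induced membrane protein, stood 2.26-fold above AGM-s3-A7 in OP9, and Lgals9, encoding galectin-9, was 2.29-fold above OP9 in AGM-s3-A9 on 1 of 2 probe sets.

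Of the 43 other effectors with a probe set, 24 were above the detection level in at least 1 line. Of all 15964 named genes, 9006 were. Among the other effectors undetected in all 3 lines were Rsad2, which encodes viperin, Oas2, Ifit2 and the chemokine gene Cxcl10. By contrast Ifitm3, which blocks virus entry, was bright and nearly equal, at 2944 in AGM-s3-A9, 2769 in OP9 and 2717 in AGM-s3-A7.

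**Figure D4:**
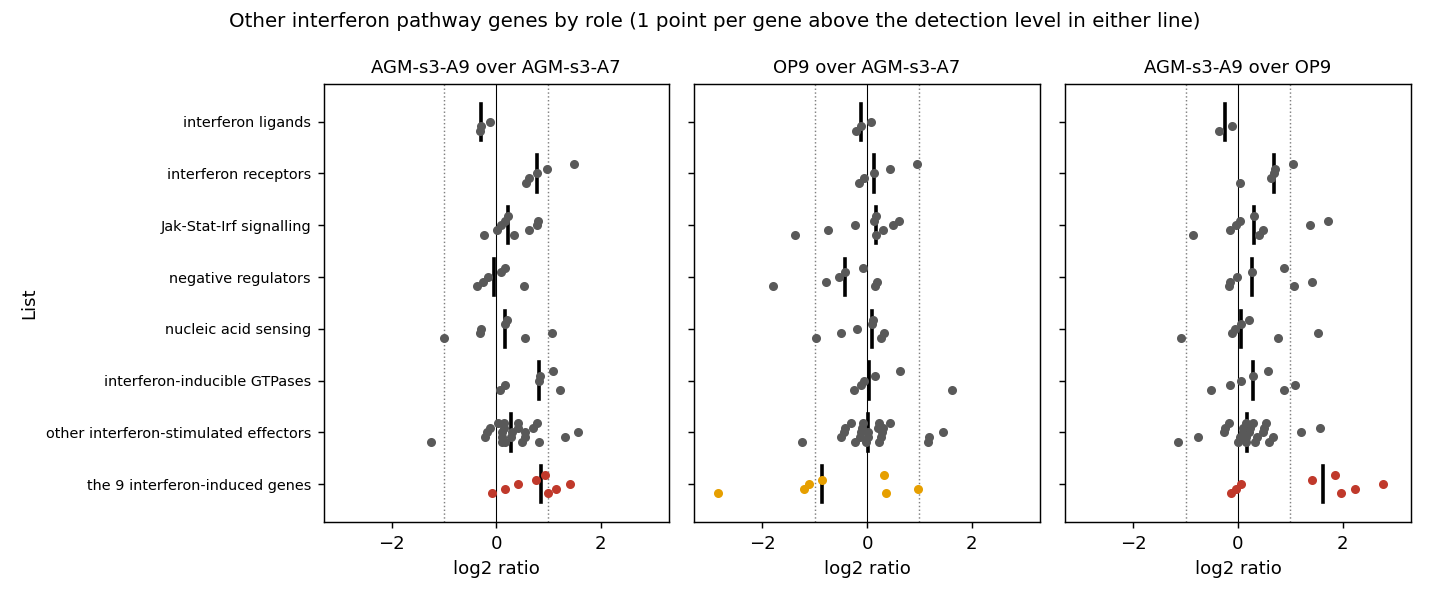
Log2 ratio of each tested gene of 7 interferon pathway lists (grey) and of the 9 interferon-induced genes (coloured, bottom row), with the median as a black bar and dotted lines at 2-fold, for the 3 comparisons. The HIN-200 list is not shown because 0 of its 5 genes were tested. The median of the 8 interferon-induced genes tested, bounds included, stands at 1.63 in the right panel, and those of the 7 lists between -0.24 and 0.69.

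Over all 8 lists, 6 genes were at least 2-fold higher and 1 lower for AGM-s3-A9 over AGM-s3-A7, of 59 tested, with a median log2 ratio of 0.20, where 3.08% of all genes tested were higher and 2.28% lower. On the values as deposited these counts were 20 and 0, and with hybridization control scaling 16 and 0. No share of all genes was computed under these scalings, which moved the median of all genes tested to 0.24 and 0.23. The counts therefore cannot be set against 3.08% and 2.28%. After quantile normalization the counts for OP9 over AGM-s3-A7 were 4 and 3 of 60, with a median of 0.02. They are near the shares of all genes, 5.14% and 5.98%. For AGM-s3-A9 over OP9 they were 9 and 2 of 61, with a median of 0.22, against 6.57% and 5.06% of all genes. The values as deposited gave 21 and 1, with a median of 0.19 over all genes tested and no share of all genes computed.

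Most markers of other cells were undetected. Of 12 macrophage and leukocyte markers, 2 were above the detection level in AGM-s3-A9, 1 in OP9 and 2 in AGM-s3-A7, with summed intensities of 669 in AGM-s3-A9, 508 in OP9 and 729 in AGM-s3-A7. Cd14, a monocyte marker, was detected in all lines, at 495 in AGM-s3-A9, 298 in OP9 and 503 in AGM-s3-A7. The leukocyte marker Ptprc read between 0.90 and 2.31 and the macrophage marker Adgre1 between 4.57 and 5.50. Of 8 endothelial markers, Cd34 alone was detected, in AGM-s3-A7. Of 10 stromal markers 9 were detected in AGM-s3-A9, 8 in OP9 and 9 in AGM-s3-A7, Col1a1 reading 6684 in AGM-s3-A9, 3539 in OP9 and 6174 in AGM-s3-A7. Vim, a mesenchymal filament gene, was the 1 undetected in all lines, at 21.7 in AGM-s3-A9, 22.9 in OP9 and 17.9 in AGM-s3-A7. Thy1, a fibroblast surface marker, was above the detection level in the AGM-s3 lines and at 4.61 in OP9, in the same direction as Ifi202b and Ifi47. Of the 9 stromal markers tested for OP9 over AGM-s3-A7, 3 were at least 2-fold lower and 8 had a ratio below 0, at a median log2 ratio of -0.72. Of all 8741 genes tested, 5.98% were at least 2-fold lower and 4077 had a ratio below 0, at a median of 0.04. Besides Thy1, the markers at least 2-fold lower were Col3a1, a collagen gene, 5.97-fold lower, and Sparc, a matrix protein gene, 3.29-fold lower. The part of these markers in the result was not tested.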

How the data were processed

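Gene expression was measured in 3 mouse stromal lines on 9 Affymetrix arrays, 1 per line and array type. The deposited values are linear intensities, 1 per probe set and array. Per the labels' protocols, biotinylated cRNA was made from 6 ug of total RNA. The scanner software, summarisation and scaling were not given in the sources used here.

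Intensities were put on the log2 scale and quantile normalized within an array type, since the means of the deposited values, trimmed by 2% at each end, spanned 61.1% (MG-U74A), 49.8% (MG-U74B) and 49.7% (MG-U74C) of the lowest. Symbols came from the platform annotation. Of 36701 probe sets that are no controls, 29131 had 1 symbol, 724 several and 6846 none. Through gene identifiers, 15887 of 15964 genes matched the RefSeq table of GRCm38.p6, and 0 symbols differed. The probe set with the highest mean normalized intensity over the 3 lines stood for a gene, also where its probe sets lay on different array types. Normalization and the 2-fold cut were tried on simulated arrays with changes in bright probe sets. The detection level, the choice of probe set and the counting of members were not part of that. Python 3.11.15, numpy 2.4.6 and pandas 2.3.3 were used.

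The members and lists were chosen with earlier results of these data known. All 9 genes are named. From each pathway list the up to 4 genes with the largest fold of at least 2 per comparison and direction are named; Ifnb1, Ifng, Ifnar1, Ifngr1, Ifngr2, Irf9, Stat2, Usp18, Mx1, Mx2, Rsad2, Oas2, Ifit2, Cxcl10 and Ifitm3 were chosen after their values were seen. The alternatives tried were other scalings, detection levels, fold thresholds and choices of probe set. The number of arrays limits the precision.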

Additional observations from a re-analysis of the deposited data

Results flagged for a closer look

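A probe set of MG-U74A annotated with 4 genes, Mndal, Ifi211, Ifi205 and Ifi204, was left out because it names several genes, yet gave a signal above the detection level in all lines. It read 255 in AGM-s3-A9, 240.2 in OP9 and 199.9 in AGM-s3-A7, a log2 ratio of 0.08 for AGM-s3-A9 over OP9. The probe set that names Ifi204 alone gave 1.98 for the same pair, so the HIN-200 signals differ between probe sets. A probe set annotated with Ifi202b and LOC100044068 was undetected in all lines, at 39.9 in AGM-s3-A9, 0.76 in OP9 and 21.8 in AGM-s3-A7.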

How the results depend on the processing

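No paired analysis was possible because each line was hybridised once to each array type, so there are no replicate numbers to pair, and for the same reason no array could be left out of a group. Counts are of genes at least 2-fold higher or lower unless another fold is named. The shares of all genes given earlier hold for the reported scaling, detection level and fold. None was computed for the alternatives, so the counts below have no share beside them. On the values as deposited, 4 of the 9 genes were higher for AGM-s3-A9 over AGM-s3-A7, and the pathway lists gave 20 higher and 0 lower there and 21 higher and 1 lower for AGM-s3-A9 over OP9. With hybridization control scaling, 4 of the 9 were higher in AGM-s3-A9 and 1 lower in OP9, each over AGM-s3-A7, and the lists gave 16 higher and 0 lower for AGM-s3-A9 over AGM-s3-A7. They gave 1 lower for AGM-s3-A9 over OP9. With scaling to the 75th percentile the lists gave 2 lower for AGM-s3-A9 over AGM-s3-A7.

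With the 75th percentile of all values as the detection level, fewer genes were above it. Of the 9 genes, 0 were then higher for AGM-s3-A9 over AGM-s3-A7, 1 was lower for OP9 over AGM-s3-A7 (median -0.33) and 1 was higher for AGM-s3-A9 over OP9 (median 0.82). The lists gave 2 higher and 0 lower for AGM-s3-A9 over AGM-s3-A7, 1 lower for OP9 over AGM-s3-A7, and 4 higher and 1 lower for AGM-s3-A9 over OP9. With no filter on low values, 1 of the 9, Ifit1, was higher for OP9 over AGM-s3-A7, with a median of -0.28, and the lists gave 12 higher and 9 lower for AGM-s3-A9 over AGM-s3-A7, 16 and 10 for OP9 over AGM-s3-A7 and 14 lower for AGM-s3-A9 over OP9.

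When all probe sets of a gene were summarised by their median, in which undetected ones count as no difference, the medians of the 9 genes were 0.30 for AGM-s3-A9 over AGM-s3-A7, 0.49 for AGM-s3-A9 over OP9, with 3 higher, and 0 for OP9 over AGM-s3-A7. The lists gave 2 higher for AGM-s3-A9 over AGM-s3-A7, 2 higher for OP9 over AGM-s3-A7, and 4 higher and 1 lower for AGM-s3-A9 over OP9. At a fold of 1.5, 5 of the 9 were higher in AGM-s3-A9 over AGM-s3-A7. For OP9 over AGM-s3-A7, 1 was higher and 4 were lower. The lists gave 17 and 2, 7 and 6, and 17 and 4 higher and lower in the order of the comparisons above. At a fold of 3, 0 of the 9 were higher in AGM-s3-A9 and 1 lower in OP9, each over AGM-s3-A7, and the lists gave 0 and 0, 1 and 1, and 1 and 0. Except where a value or the construction above shows it, the cause was not tested. Of 411 ratios of single probe sets or named genes under the alternatives, 323 moved by less than the SD between probe sets, 88 moved by more, and 0 past 2-fold changed direction. Another detection level alone cannot reverse a direction, so this 0 was in part fixed by the rule. Low signal limits Ifit3 to no fold, Oasl2 to bounds and Ifit1 to bounds over AGM-s3-A7.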

Other observations

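For the 4 members above the detection level in all 3 lines, the genes with the nearest pair of log2 ratios (AGM-s3-A9 over AGM-s3-A7 and OP9 over AGM-s3-A7) were sought by Euclidean distance among 7074 genes above it in all 3 lines. Nearest to Ifi204 were Ly6e (distance 0.06), Plod1 (0.09) and Cd82 (0.17), with 5 genes within 0.2. Nearest to Gbp2 were Sqor (0.04), Hlx (0.07) and Lgr4 (0.07), with 10 genes within 0.2. Nearest to Irf7 were Dnajc30, Fndc3a and Ifnar1, at distances between 0.04 and 0.05, with 44 genes within 0.2. Isg15, which varied little after quantile normalization, had 624 genes within 0.2, Arpc4, Fam98c and Cuedc2 being the nearest. With 3 lines the distance rests on 3 intensities per gene, so these are descriptions of the arrays.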
